A study of Mus musculus with 18 samples.

Results

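The genes described here are 10 components of the MHC class I antigen presentation pathway in C2C12 cells, a line of mouse myoblasts. They are H2-K1, H2-D1, B2m, Tap1, Tap2, Tapbp, Psmb8, Psmb9, Psmb10 and Nlrc5, chosen by name and matched to Ensembl identifiers. Earlier results of these data were known when they were chosen, so counts of them beside all tested genes are a description only. All 10 of them were found among the 35275 genes of the expression table. Poly(A) RNA was sequenced from 18 libraries in 6 groups of 3, which the design text calls biological replicates. Control cells carry the genotype label Wild-type. The other cells overexpressed MUNC, a long noncoding RNA made upstream of Myod1, in its spliced form (MUNC spliced) or in its genomic form (MUNC genomic). Each of the 3 kinds of cell was sampled in growth medium with 20% fetal bovine serum (GM) and after 3 days in 2% horse serum (DM3). All of them are described as PAX7 NEG. The labels do not say whether a MUNC line was a clone, nor whether control cells carried an empty vector, and the level of MUNC itself was not analysed here. C2C12 came from a C3H mouse while the mm10 reference is C57BL/6J. These strains carry different alleles of the class I heavy chains, so the levels of H2-K1 and H2-D1 depend on how reads of one allele align to the other.

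MHC class I molecules show short peptides from inside the cell to CD8+ T cells. The proteasome cuts the peptides, with the subunits Psmb8, Psmb9 and Psmb10 replacing Psmb5, Psmb6 and Psmb7 in the immunoproteasome. Tap1 and Tap2 form the pump that carries peptides into the endoplasmic reticulum, where Tapbp (tapasin) helps to load them. The loaded molecule is a heavy chain, such as the product of H2-K1 or H2-D1, paired with the light chain from B2m. Nlrc5 is the transactivator of class I genes, and interferons raise the whole pathway through the Irf factors, among others. Healthy muscle fibres show little class I on their surface, and inflamed muscle shows much more.

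On GRCm38, with GENCODE M21 gene models, 7 of the 10 genes lie on chromosome 17. Psmb9, Tap1, Psmb8 and Tap2 sit side by side in 34.3 kb, at chr17:34181987-34216321. H2-K1 is at chr17:33996017-34000347, H2-D1 at chr17:35262730-35267499 and Tapbp at chr17:33915899-33929292. B2m is at chr2:122147686-122153083, Psmb10 at chr8:105935735-105938444 and Nlrc5 at chr8:94434356-94527272. The models of Psmb9 and Tap1 start head to head and share 212 bases, and the strand setting of the counting is not given in the sources used here, so reads from that overlap cannot be told apart. Of the 50-base words of H2-K1 transcripts, 9.63% also occur in other genes, most often H2-Q10, and of those of H2-D1 12.8% do, most often H2-Q1. No more than 2.87% of the words of any other member are shared. The heavy chain values are therefore less certain than the rest.

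The start regions of the heavy and light chain genes are shown because these genes carry the best known class I control elements, where Nlrc5 and its partners act. RefSeq promoter windows on GRCm38.p6, from 250 bases before to 50 bases after the annotated start, were found for 8 members. The 200 bases just before the start are printed 5′ to 3′ for H2-K1 (chr17:34000348-34000547, minus strand), H2-D1 (chr17:35262894-35263093, plus strand) and B2m (chr2:122147487-122147686, plus strand). Capitals mark matches to the kB site as H2-K1 holds it, GGGGATTCCCC, to the interferon response core AANNGAAA on either strand, and to TGACG and ATTGG with 20 bases between them, the letters of an X2 box and a Y box.
H2-K1: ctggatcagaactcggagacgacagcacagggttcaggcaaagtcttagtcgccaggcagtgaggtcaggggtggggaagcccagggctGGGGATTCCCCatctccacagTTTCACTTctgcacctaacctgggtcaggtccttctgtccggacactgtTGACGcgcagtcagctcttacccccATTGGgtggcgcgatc
H2-D1: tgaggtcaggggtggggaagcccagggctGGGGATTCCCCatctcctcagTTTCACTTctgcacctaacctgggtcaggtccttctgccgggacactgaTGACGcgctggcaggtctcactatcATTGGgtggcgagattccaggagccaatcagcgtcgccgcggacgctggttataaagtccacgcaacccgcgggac
B2m: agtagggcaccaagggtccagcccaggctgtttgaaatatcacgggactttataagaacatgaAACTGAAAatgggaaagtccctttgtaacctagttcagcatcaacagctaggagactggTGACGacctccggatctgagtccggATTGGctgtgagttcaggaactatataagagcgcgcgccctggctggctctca
The kB letters began at -111 in H2-K1 and at -171 in H2-D1, counted from the annotated start used for the printed windows, and were not found in the B2m window. Both strands were searched for each motif, and 10 of 32851 mouse promoter windows (0.0304%) held this kB word, in 9 genes that include H2-Q6. The word was taken from the H2-K1 window, so its match there was fixed in advance and the rarity of the word is a description only. The interferon core stood at -90 in H2-K1, at -150 in H2-D1 and at -137 in B2m, but 23.9% of all windows hold it. RefSeq lists another start for H2-K1, from which its kB, interferon core and TGACG matches lie at -125, -104 and -55. The pair of TGACG and ATTGG was found in 31 windows (0.0944%) of 27 genes, among them these 3 and H2-M3. Its spacing was chosen after these sequences had been read, so its rarity is a description only. The longest stretch identical between the windows of H2-K1 and H2-D1 was 47 bases. The windows of Tap1, Psmb9, Psmb8, Psmb10 and Tapbp held no match to these 3 motifs. The search was for these exact letters and this spacing, so it does not show that those windows lack other forms of the sites. The Tap1 and Psmb9 windows overlap by 275 bases, since the genes face away from each other. A match is a stretch of letters and not a measured binding site.

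Values are in FPM, read counts that the authors scaled for library size, and between 38416702 and 68788327 reads per library lay behind them. With 0 reads, the upper limit of 3 reads corresponds to 0.0429 to 0.0757 FPM. Of the myoblast and myotube markers, Myf5 and Des were present in every library, whereas Myod1 had a control mean of 0.0285 FPM in GM and 0.0993 FPM in DM3. Myog, an early differentiation factor, had DM3 means of 0.344 FPM in control, 106 FPM in MUNC spliced and 9.70 FPM in MUNC genomic cells. The 10 leukocyte and antigen-presenting cell markers summed to 0.906 to 5.72 FPM per library. Cd68 was the highest of them in each group by its mean, Cd79a averaged 1.08 FPM in MUNC genomic DM3 beside Cd68 at 1.40 FPM, and Cd3e had 0 reads in all 18. The 4 endothelial markers summed to at most 7.62 FPM, with the highest sums in the MUNC genomic line, where Cdh5 averaged 7.14 FPM in GM and 4.20 FPM in DM3. Col1a1 and Col1a2 stood at 767 FPM or more in every library, while Thy1 was at or near 0. Pdgfra had group means of 7.24 to 26.1 FPM. Dcn went between GM and DM3 from a mean of 17.4 to 186 FPM in control, 34.9 to 396 FPM in MUNC spliced and 6.19 to 181 FPM in MUNC genomic cells. Acta1, alone of the 11 muscle markers, had a lower mean in control DM3 than in control GM, at 4.35 against 20.7 FPM. It went from 10.3 to 119 FPM in MUNC spliced and from 8.20 to 21.8 FPM in MUNC genomic cells. The 11 markers summed to 158 to 175 FPM per library in control GM and 239 to 337 FPM in control DM3. In bulk RNA, fewer cells that express a gene and less RNA of it per cell cannot be told apart.

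The 10 genes differed widely in level, and 7 of them reached 0.5 FPM in all 18 libraries. Psmb8 reached it in 6 libraries, all in DM3 of control or MUNC spliced cells. Psmb9 and Nlrc5 reached it in 8 libraries each, among them all 3 of control DM3 and all 3 of MUNC spliced DM3. Psmb8, Psmb9 and Nlrc5 thus passed the filter mainly through groups where they are high. Their calls in comparisons with those groups, and the counts that include them, are not independent of the filter. All 10 entered the test, which was limma on log2(FPM + 1) over 13869 genes with Benjamini-Hochberg adjustment and a call at an adjusted p under 0.05. Log2 changes below are on that scale, and the added 1 FPM makes the changes of low genes look smaller than they are. Scaled per kb of annotated exon, with the exons of all isoforms of a gene joined, B2m was the most abundant member in each of the 6 groups. Without this scaling Tapbp averaged more than B2m in MUNC genomic cells, at 157 against 156 FPM in GM and 377 against 311 FPM in DM3.

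**Figure D1:**
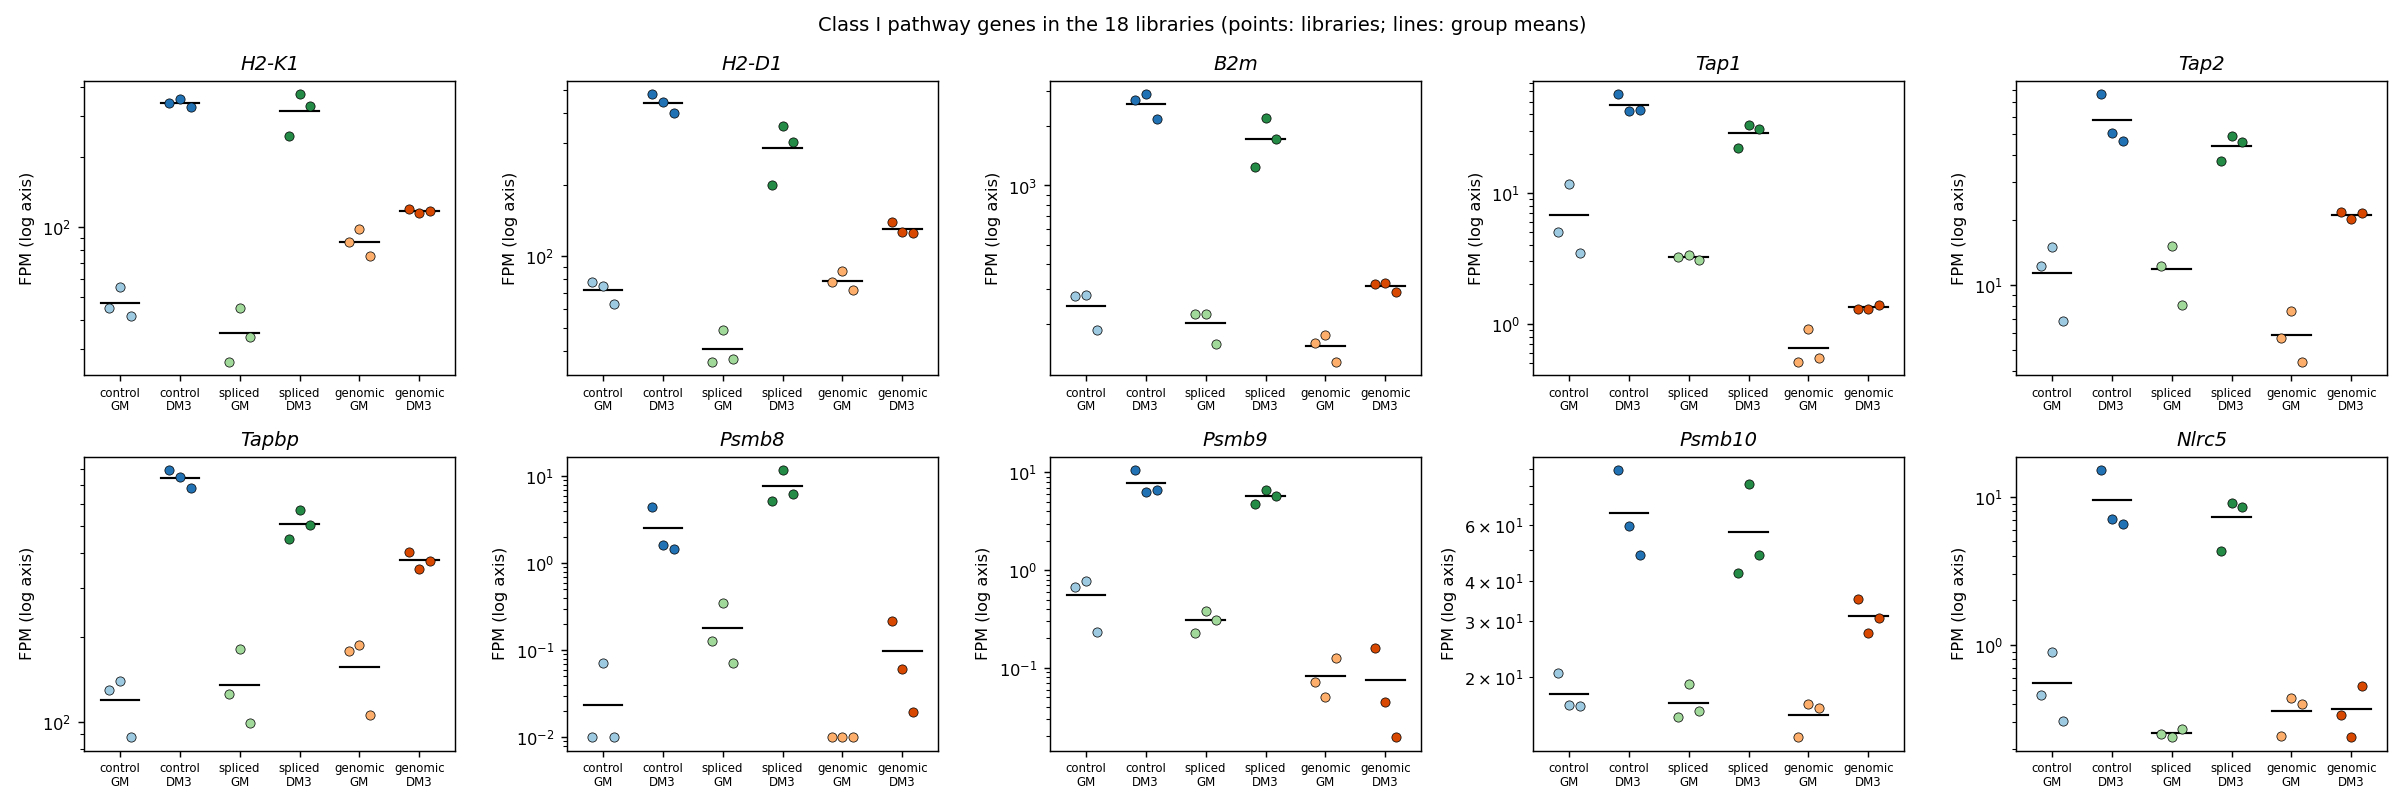
FPM of each of the 10 genes (log axis) in the 18 libraries, with 3 points per group and a line at the group mean; libraries with 0 reads of Psmb8 are drawn at 0.01. Control and MUNC spliced cells in DM3 sit highest in every panel, and the MUNC genomic DM3 points lie below both of them.

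In control cells all 10 genes rose between GM and DM3, by 1.68 to 3.39 on the log2 scale (median 2.63), while 29.6% of all tested genes rose and the median of all was 0.02. The 3 GM and 3 DM3 libraries did not overlap for any of the 10, which held for 31.9% of all tested genes in this direction. The call was kept for all 10 under each alternative setting, no filter on low values among them, and with each library left out. Psmb8, Psmb9 and Nlrc5 are in these counts although they passed the filter mainly through DM3 libraries.

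Both heavy chains and the light chain rose. H2-K1 stood at 45, 55.1 and 41.4 FPM in the control GM libraries and at 341, 357 and 329 FPM in the control DM3 libraries. Every DM3 library was far above every GM library, a 7.27-fold ratio of means (log2 change 2.84, SE 0.17, limma adjusted p = 1.24e-08). H2-D1 went from 72.0 ± 7.93 to 440 ± 39.4 FPM (SD, n = 3 each). B2m stood at 278, 279 and 186 FPM in GM and at 2712, 2883 and 2157 FPM in DM3. The lowest GM and the lowest DM3 value of B2m both came from replicate 3, and the ratio of means was 10.4 (log2 change 3.39, SE 0.21, limma adjusted p = 1.24e-08), the largest rise of the 10 on the log2(FPM + 1) scale. As a ratio of means, Nlrc5 (17.2-fold) and Psmb9 (14-fold) rose more.

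The peptide transporter and tapasin rose as well. Tap1 stood at 5, 11.8 and 3.46 FPM in control GM and at 56.8, 42.8 and 42.9 FPM in control DM3. Replicate 2 of GM stood apart above the other GM libraries and still lay well below each DM3 library (log2 change 2.78, 95% interval 2.20 to 3.36). Tap2 went from 11.4 ± 4.19 to 57.7 ± 16.2 FPM and Tapbp from 119 ± 27.6 to 743 ± 56.0 FPM (SD, n = 3).

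The immunoproteasome subunits started from different levels. Psmb10 was present in GM at 17.7 ± 2.53 FPM and reached 65.7 ± 21.3 FPM in DM3 (SD, n = 3), the smallest ratio of means of the 9 members for which one is given, at 3.71. Psmb9 had 39, 44 and 15 reads in the control GM libraries and 550, 317 and 360 reads in the control DM3 libraries, or 0.666, 0.779 and 0.230 against 10.6, 6.25 and 6.63 FPM. Psmb8 had 0, 4 and 0 reads in GM and 232, 82 and 79 reads in DM3, where it stood at 4.46, 1.62 and 1.46 FPM. No fold is given for Psmb8, because 2 GM libraries held no read. Nlrc5 went from 0.461, 0.903 and 0.307 FPM in GM to 15.2, 7.06 and 6.52 FPM in DM3. Replicate 1 was the highest DM3 library for all 4 of these genes, and for each of them the lowest DM3 library was above the highest GM library.

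MUNC spliced cells showed the same 10 calls. All 10 genes rose between GM and DM3, by 1.68 to 3.16 on the log2 scale (median 2.71), against 17.2% of all tested genes. This count includes Psmb8, Psmb9 and Nlrc5, which passed the filter mainly through control and MUNC spliced DM3. H2-K1 stood at 26.4, 44.9 and 33.7 FPM in MUNC spliced GM and at 247, 373 and 333 FPM in MUNC spliced DM3. B2m stood at 224, 225 and 159 FPM in GM and at 1236, 2187 and 1714 FPM in DM3. Replicate 1 of MUNC spliced DM3 was the lowest library of its group for all 10 genes, and all 10 calls were also made without it. Psmb8 had 5, 19 and 4 reads in GM and 274, 675 and 347 reads in DM3, a 42.5-fold ratio of means. The difference between this rise and that of control cells, tested as an interaction, was past the threshold for 1 member, against 14.4% of all tested genes in either direction. That member was Psmb8, whose rise was larger by 1.14 on the log2(FPM + 1) scale (SE 0.37, limma adjusted p = 0.0482). The value turned to -1.25 in edgeR and to -1.39 in DESeq2, with no call, and 9 of the 12 fits without 1 library lost the call, with adjusted p up to 0.132. For the other 9 members the interaction lay between -0.71 (Tapbp) and 0.31 (H2-K1), with 95% intervals that include 0 for 8 of them. That of Tapbp ran from -1.39 to -0.03, at a limma adjusted p of 0.146.

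In MUNC genomic cells the pathway changed less between GM and DM3, and unevenly. Of the 10 genes 6 rose, against 26.3% of all tested genes, and none fell, against 25.1%, with a median change of 0.61. Of these 6, Tap2 rose most on the log2(FPM + 1) scale, from 5.70, 7.56 and 4.43 FPM to 21.9, 20.2 and 21.5 FPM (log2 change 1.71, SE 0.26, limma adjusted p = 6.25e-05). Tapbp went from 157 ± 45.4 to 377 ± 27.1 FPM, B2m from 156 ± 24.1 to 311 ± 17.6 FPM, Psmb10 from 15.2 ± 1.93 to 31.0 ± 3.84 FPM and H2-D1 from 78.9 ± 7.39 to 130 ± 7.64 FPM (SD, n = 3). H2-K1 stood at 86.0, 98.3 and 74.8 FPM in GM and at 120, 115 and 117 FPM in DM3. Its groups did not overlap, but the call was weak (log2 change 0.45, limma adjusted p = 0.0413) and was lost without any 1 library of this line other than GM replicate 2, with adjusted p of 0.0764 to 0.158, and in edgeR (adjusted p = 0.0579).

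The other 4 members stayed near the bottom of their range in MUNC genomic DM3. Tap1 stood at 0.515, 0.912 and 0.546 FPM in GM and at 1.31, 1.30 and 1.40 FPM in DM3. These groups did not overlap and the ratio of means was 2.03, yet limma gave an adjusted p of 0.135 on the log2(FPM + 1) scale. edgeR and DESeq2 on the recovered reads called it, at log2 changes of 1 and 1.04. Psmb9 had 5, 3 and 6 reads in GM and 8, 3 and 1 reads in DM3. Psmb8 had 0 reads in all 3 GM libraries and 11, 4 and 1 reads in DM3, which limma did not call and edgeR and DESeq2 did. Nlrc5 stood at 0.243, 0.439 and 0.399 FPM in GM and at 0.336, 0.241 and 0.527 FPM in DM3. The 95% interval of its log2 change ran from -0.55 to 0.56, below the interval of the control rise, which began at 2.14.

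**Figure D2:**
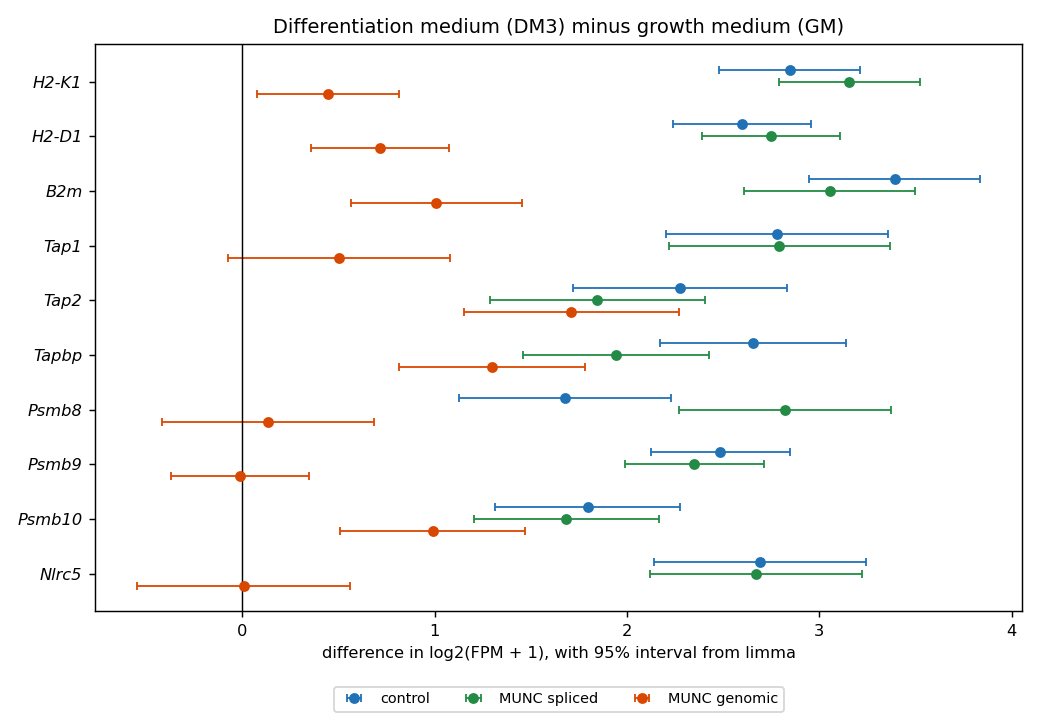
Difference between DM3 and GM in log2(FPM + 1) for each gene, with bars for the 95% interval of the limma fit, in control, MUNC spliced and MUNC genomic cells (n = 3 libraries per group). The control and MUNC spliced points lie between 1.68 and 3.39, and the MUNC genomic points between -0.01 and 1.71.

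The smaller rise in MUNC genomic cells was tested as an interaction. It was past the threshold for 8 of the 10 genes, all in the lower direction, against 5.25% of all tested genes. Psmb8, Psmb9 and Nlrc5 are among these 8, although they passed the filter mainly through control and MUNC spliced DM3. On the log2(FPM + 1) scale the largest differences in rise were those of Nlrc5 (-2.69, SE 0.37), Psmb9 (-2.50, SE 0.24), H2-K1 (-2.40, SE 0.25), B2m (-2.39, SE 0.30) and Tap1 (-2.28, SE 0.39), with limma adjusted p of 9.75e-06 to 0.00125. H2-D1 (-1.88), Psmb8 (-1.55) and Tapbp (-1.36) followed. The call for Psmb8 was lost with a pseudocount of 5, in edgeR (adjusted p = 0.893) and in DESeq2 (adjusted p = 0.594). Psmb10 (-0.81, limma adjusted p = 0.144) and Tap2 (-0.56, limma adjusted p = 0.408) did not pass, with 95% intervals of -1.49 to -0.13 and -1.35 to 0.22. The count was 8 without any 1 library.

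In DM3, MUNC genomic cells had less of every member than control cells. All 10 genes were lower and no MUNC genomic library reached a control library, while 20.9% of all tested genes were lower and 29.1% were lower without overlap. The median was -1.66 for the 10 genes and -0.01 over all tested genes. The 10 calls were made under every alternative setting, no filter on low values among them, and without any 1 library. They include Psmb8, Psmb9 and Nlrc5, which passed the filter mainly through control and MUNC spliced DM3.

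On the log2(FPM + 1) scale the gap was widest for the transporter subunit Tap1, which stood at 1.31, 1.30 and 1.40 FPM against 56.8, 42.8 and 42.9 FPM in control DM3. This is 35.6-fold lower as a ratio of means (log2 change -4.36, SE 0.27, limma adjusted p = 1.95e-09), and each MUNC genomic library had 66 to 86 reads of the gene. Tap2, its partner, was 2.72-fold lower, at 21.2 ± 0.892 against 57.7 ± 16.2 FPM (SD, n = 3). Tapbp was 1.97-fold lower, at 377 ± 27.1 against 743 ± 56.0 FPM, the smallest log2 difference of the 10 at -0.98.

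B2m stood at 320, 323 and 291 FPM in MUNC genomic DM3, 8.30-fold below the control mean of 2584 FPM (log2 change -3.04, SE 0.21, limma adjusted p = 6.89e-09). H2-D1 was 3.38-fold and H2-K1 2.92-fold lower, at 130 ± 7.64 and 117 ± 2.53 FPM. Nlrc5 was 26-fold lower, at 0.368 ± 0.146 against 9.58 ± 4.83 FPM. Psmb9 had 1 to 8 reads against 317 to 550 reads per control library, so that its mean was 0.951% of that of control DM3, against 2.81% for Tap1, and Psmb8 had 1 to 11 reads against 79 to 232 reads. Both are called by limma at log2 changes of -3.01 and -1.58. In the authors' deposited table the log2 fold changes of these low genes were larger, at -6.75 for Psmb9, -4.68 for Psmb8 and -4.70 for Nlrc5. Psmb10 was 2.12-fold lower, at 31.0 ± 3.84 against 65.7 ± 21.3 FPM. All 10 members were also lower at an adjusted p under 0.05 in the authors' deposited table.

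MUNC spliced cells in DM3 were much closer to control, with 1 member higher and 3 lower, against 22.3% and 21.0% of all tested genes. H2-D1 was lower, at 199, 351 and 301 FPM against 478, 442 and 399 FPM (log2 change -0.67, SE 0.17, limma adjusted p = 0.00473). Psmb8 was higher, at 5.20, 11.8 and 6.27 FPM against 4.46, 1.62 and 1.46 FPM, so that the groups did not overlap (log2 change 1.35, SE 0.26, limma adjusted p = 0.000587). B2m (-0.62, adjusted p = 0.0248) and Tap1 (-0.72, adjusted p = 0.0421) were lower in limma. The call for B2m was lost without control replicate 1, control replicate 2 or MUNC spliced replicate 1 (adjusted p = 0.0656, 0.0933 and 0.135). That for Tap1 was lost without any 1 of the 6 libraries other than MUNC spliced replicate 2, with adjusted p of 0.0577 to 0.16, and in edgeR (adjusted p = 0.0771) and DESeq2 (adjusted p = 0.0587). Tapbp was called lower too by limma with the replicate number as a block (-0.55, adjusted p = 0.0164) and with only the groups compared (adjusted p = 0.0148), against 0.0636 in the main fit. H2-K1 did not pass, at 317 ± 64.5 against 343 ± 14.2 FPM, with a 95% interval of -0.50 to 0.24. For Tap2, Psmb9, Psmb10 and Nlrc5 the differences of -0.35, -0.37, -0.20 and -0.32 did not pass either. Psmb9 passed without control replicate 2, at -0.50 and an adjusted p of 0.0459.

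**Figure D3:**
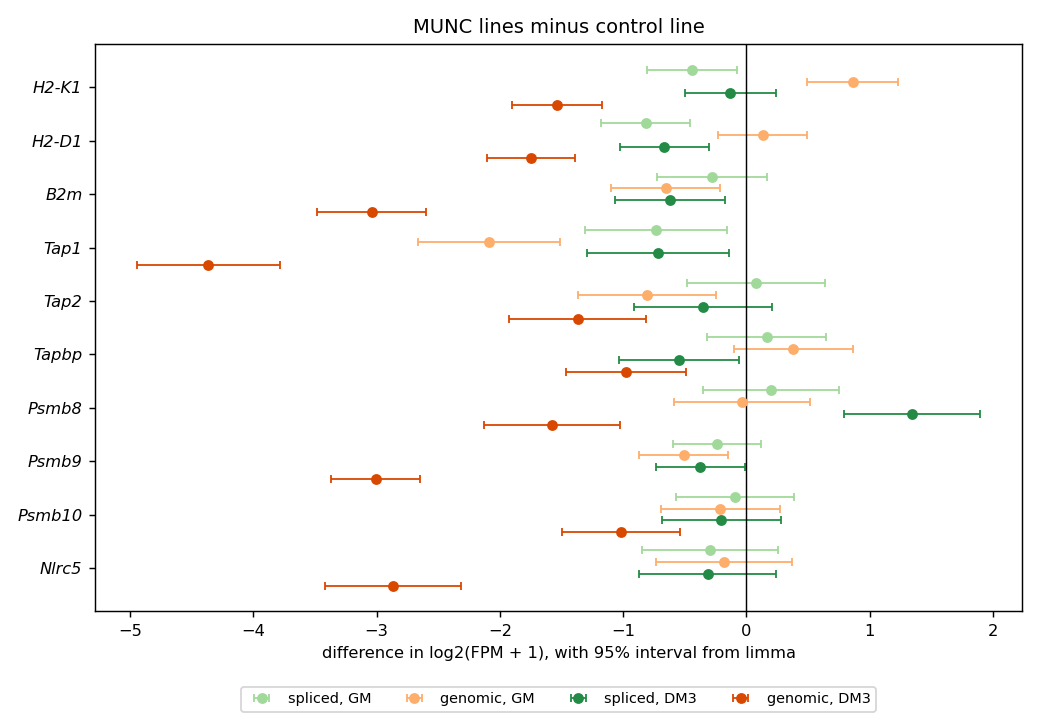
Difference between each MUNC line and control in log2(FPM + 1), in GM (light) and in DM3 (dark), with 95% intervals of the limma fit (n = 3 libraries per group). All 10 MUNC genomic DM3 points lie between -4.36 and -0.98, whereas Psmb8 in MUNC spliced DM3 stands to the right of 0 at 1.35.

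In GM the lines differed for fewer members. In MUNC genomic cells 1 member was higher and 4 were lower, against 12.2% and 14.5% of all tested genes. H2-K1 was higher, at 86.0, 98.3 and 74.8 FPM against 45, 55.1 and 41.4 FPM (log2 change 0.86, SE 0.17, limma adjusted p = 0.00147). Tap1 was 10.3-fold lower, at 0.515, 0.912 and 0.546 FPM against 5, 11.8 and 3.46 FPM (log2 change -2.09, SE 0.27, limma adjusted p = 2.4e-05). Without control replicate 2, the highest of these, the difference of Tap1 was -1.65 and remained called. Tap2 (-0.80), B2m (-0.65) and Psmb9 (-0.51) were lower at adjusted p of 0.0324, 0.0292 and 0.036 in limma. Without control replicate 1, control replicate 2, MUNC genomic replicate 1 or MUNC genomic replicate 3, none of these 3 genes passed, and Psmb9 was lost without MUNC genomic replicate 2 as well. Their adjusted p in those fits ran from 0.0534 to 0.141, and without a filter on low values none of the 3 passed either. Tapbp, at 0.38, passed without MUNC genomic replicate 3 alone (0.65, adjusted p = 0.0358).

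In MUNC spliced GM no member was higher and 2 were lower than in control GM, against 18.2% and 17.3% of all tested genes. H2-D1 stood at 36.1, 49.2 and 36.9 FPM against 78.1, 74.8 and 63.1 FPM in control GM (log2 change -0.82, SE 0.17, limma adjusted p = 0.00152). Tap1, at 3.23, 3.35 and 3.07 FPM, was called at an adjusted p of 0.0467 (log2 change -0.73). Without control replicate 2, whose value of 11.8 FPM was the highest of control GM, the difference was -0.30 at an adjusted p of 0.252, and leaving out any 1 of the other 5 libraries but control replicate 3 also lost the call. Psmb8, with 5, 19 and 4 reads against 0, 4 and 0, was called higher by DESeq2 alone (adjusted p = 0.0108). H2-K1 was lower with the replicate number as a block (-0.44, adjusted p = 0.015), in edgeR (-0.47, adjusted p = 0.0487) and without MUNC spliced replicate 2 (-0.63, adjusted p = 0.0113), but not in the limma fit without a block (adjusted p = 0.0579).

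The MUNC lines were also set against each other. In DM3, 9 of the 10 genes were higher in MUNC spliced cells, against 23.4% of all tested genes. For all 10 the libraries did not overlap, against 29.9% of all tested genes. Psmb8, Psmb9 and Nlrc5 are in these counts, although they passed the filter mainly through control and MUNC spliced DM3. On the log2(FPM + 1) scale Tap1 differed most (log2 difference 3.64, a 21.4-fold ratio of means), followed by Psmb8 (2.92), Psmb9 (2.63), Nlrc5 (2.55) and B2m (2.42). Psmb8 and Psmb9 had 1 to 11 reads in MUNC genomic DM3, and the added 1 FPM holds their differences down. Tapbp, at 510 ± 60.5 against 377 ± 27.1 FPM, did not pass (0.43, 95% interval -0.05 to 0.91, limma adjusted p = 0.14). It was called by limma with only the groups compared (adjusted p = 0.0223) and with the replicate number as a block (adjusted p = 0.0498). The call for Psmb10 (0.82) was lost without MUNC spliced replicate 2 (0.54, adjusted p = 0.0534). In GM, 2 members were higher and 2 lower in MUNC spliced cells, against 19.9% and 16.0% of all tested genes. Tap1 (1.35) and Tap2 (0.88) were higher, while H2-K1 (-1.30) and H2-D1 (-0.95) were lower. The call for Tap2 was lost without MUNC spliced replicate 2 (adjusted p = 0.0784) and without MUNC genomic replicate 3 (adjusted p = 0.0695). Psmb8 and Psmb9 were called higher in MUNC spliced GM by edgeR (adjusted p = 0.0139 and 0.0195) and DESeq2 but not by limma. The spliced and genomic comparisons with control share the control libraries, so their values are not independent measurements.

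Ordered by group mean, the genes fell into several patterns. For H2-K1, control DM3 and MUNC spliced DM3 overlapped at the top, then came MUNC genomic DM3 and MUNC genomic GM, each apart from its neighbours, and control GM and MUNC spliced GM overlapped at the bottom. Tap1 had all 6 groups apart, in the order control DM3, MUNC spliced DM3, control GM, MUNC spliced GM, MUNC genomic DM3 and MUNC genomic GM. Its level in MUNC genomic DM3 therefore lay below that of control cells in GM. Psmb9 and Nlrc5 in MUNC genomic DM3 likewise averaged less than in control GM, though for Nlrc5 those 2 groups overlapped. The other 7 members in MUNC genomic DM3 averaged more than in control GM, Psmb8 with 1 to 11 reads against 0 to 4. Psmb8 alone was highest in MUNC spliced DM3.

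Ratios within a library, per kb of annotated exon, show how the balance of partners moved. They are descriptions without a test. B2m per heavy chain (H2-K1 plus H2-D1) was 6.5 ± 0.789 in control GM and 10.4 ± 1.02 in control DM3 (SD, n = 3). It was 3.00 ± 0.168 in MUNC genomic GM and 4.01 ± 0.231 in MUNC genomic DM3, where the highest library (4.27) lay below the lowest control DM3 library (9.40). Tap2 per Tap1 was 2.75 ± 0.860 in control GM and 1.74 ± 0.193 in control DM3, but 13.3 ± 2.39 and 23 ± 1.09 in MUNC genomic GM and DM3. H2-K1 per H2-D1 was 0.576 ± 0.0702 in control GM, 0.686 ± 0.0525 in control DM3 and 0.996 ± 0.0804 in MUNC spliced DM3. It was 0.749 ± 0.0928 in MUNC spliced GM, 0.958 ± 0.042 in MUNC genomic GM and 0.793 ± 0.0307 in MUNC genomic DM3. Psmb10 per Psmb7 went from 0.125 ± 0.00998 in control GM to 0.909 ± 0.171 in control DM3, and stood at 0.799 ± 0.292 in MUNC spliced DM3 and 0.578 ± 0.0593 in MUNC genomic DM3. Psmb9 per Psmb6 and Psmb8 per Psmb5 stayed far lower, at 2.99% ± 1.07 and 1.99% ± 1.02 in control DM3. In MUNC spliced DM3 they were 3.43% ± 0.544 and 8.01% ± 3.64. Per kb of exon in control DM3, Psmb10 was thus near the level of the subunit it replaces, and Psmb9 and Psmb8 stood at a few percent of theirs. These levels depend on the exon lengths, which join all annotated isoforms and may differ from the transcripts made. Not scaled by length, Psmb10 averaged 65.7 FPM in control DM3 against 143 FPM for Psmb7. Psmb9 averaged 7.82 FPM against 135 FPM for Psmb6, and Psmb8 2.51 FPM against 31.9 FPM for Psmb5.

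**Figure D4:**
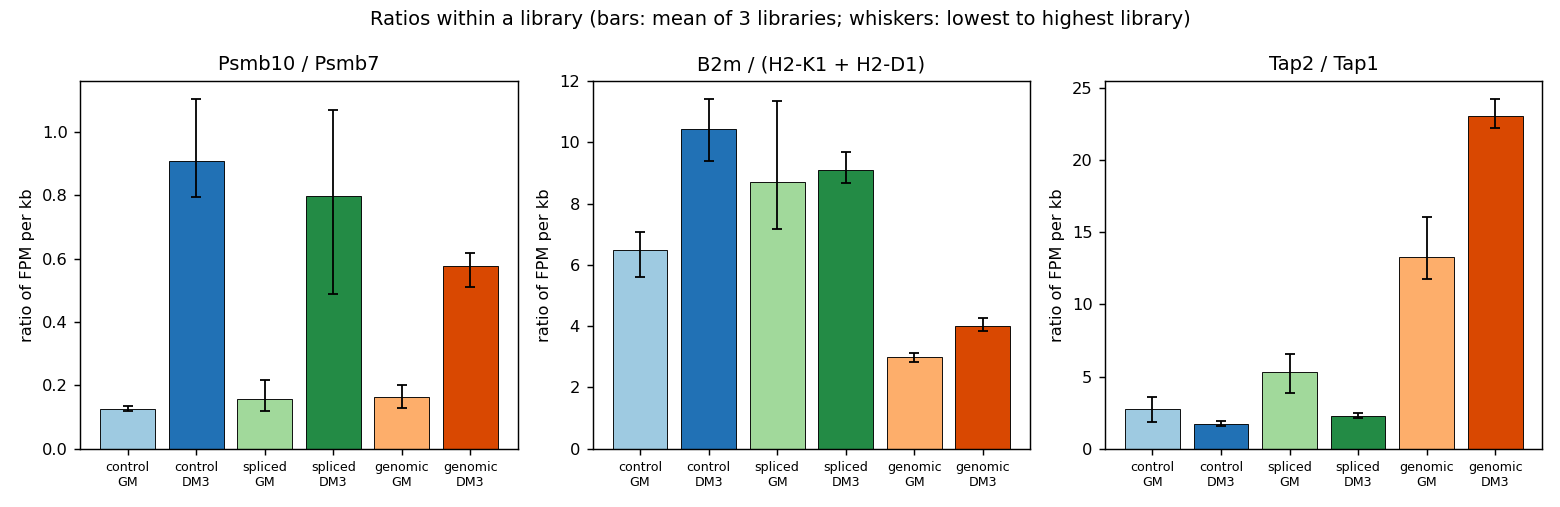
Ratios of FPM per kb within each library, as the mean of 3 libraries per group (bars, from 0) with whiskers from the lowest to the highest library. B2m per heavy chain is lowest in MUNC genomic cells, at 3.00 in GM and 4.01 in DM3, and Tap2 per Tap1 is highest there, at 13.3 and 23.

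Other genes linked to the pathway were read next, from lists written for it. For reference, over all tested genes 29.6% rose and 28.6% fell in control cells (median 0.02), and 19.3% were higher and 20.9% lower in MUNC genomic than in control DM3 (median -0.01). Of 19 genes of interferon signalling, 16 were tested, and in control cells 13 of them rose and 1 fell between GM and DM3 (median 0.69). In DM3, 7 were lower and 1 higher in MUNC genomic cells than in control. MUNC spliced cells in DM3 had 3 lower and 1 higher than control, against 21.0% and 22.3% of all tested genes. Irf7, a factor that amplifies the interferon response, stood at 626, 583 and 510 FPM in control DM3 and at 4.55, 4.91 and 6.79 FPM in MUNC genomic DM3 (log2 change -6.49, SE 0.54, limma adjusted p = 6.43e-08). Irf9, the DNA-binding part of the factor that type I interferons activate, had DM3 means of 142 FPM in control and 18.7 FPM in MUNC genomic cells. Irf1, an interferon-induced activator of class I genes, did not pass in this comparison. Its DM3 level was 155 ± 0.877 FPM in control and 154 ± 21.7 FPM in MUNC genomic cells (SD, n = 3), and it rose from GM in both, by 1.26 and 1.34. Its difference between them was -0.03, with a 95% interval of -0.59 to 0.54. In MUNC spliced DM3, Irf7 averaged 177 FPM, Irf9 99.8 FPM and Irf1 92.9 FPM, each below its control DM3 mean. Ifngr1, a chain of the interferon gamma receptor, was higher in MUNC genomic DM3, at 142 ± 7.04 against 74.7 ± 6.48 FPM. Ptpn2, a phosphatase that dampens the pathway, was the called gene with the largest fall in control cells, from 66.7 to 49.8 FPM.

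Transcripts of the interferons themselves were close to the limit of detection, and these 2 genes were looked up after their values had been seen. Ifnb1 had 9, 5 and 10 reads in control DM3, 7, 9 and 10 reads in MUNC spliced DM3 and 0 reads in all 3 MUNC genomic DM3 libraries. In GM it had 0 to 5 reads in any library. Ifng had 34, 22 and 10 reads in MUNC spliced DM3, 8 reads in MUNC spliced GM replicate 1, 1 read in MUNC genomic DM3 replicate 3 and 0 reads in the other 13 libraries, every control library among them. Both genes fell below the filter and were not tested. Their part in the changes of the pathway was not tested.

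**Figure D5:**
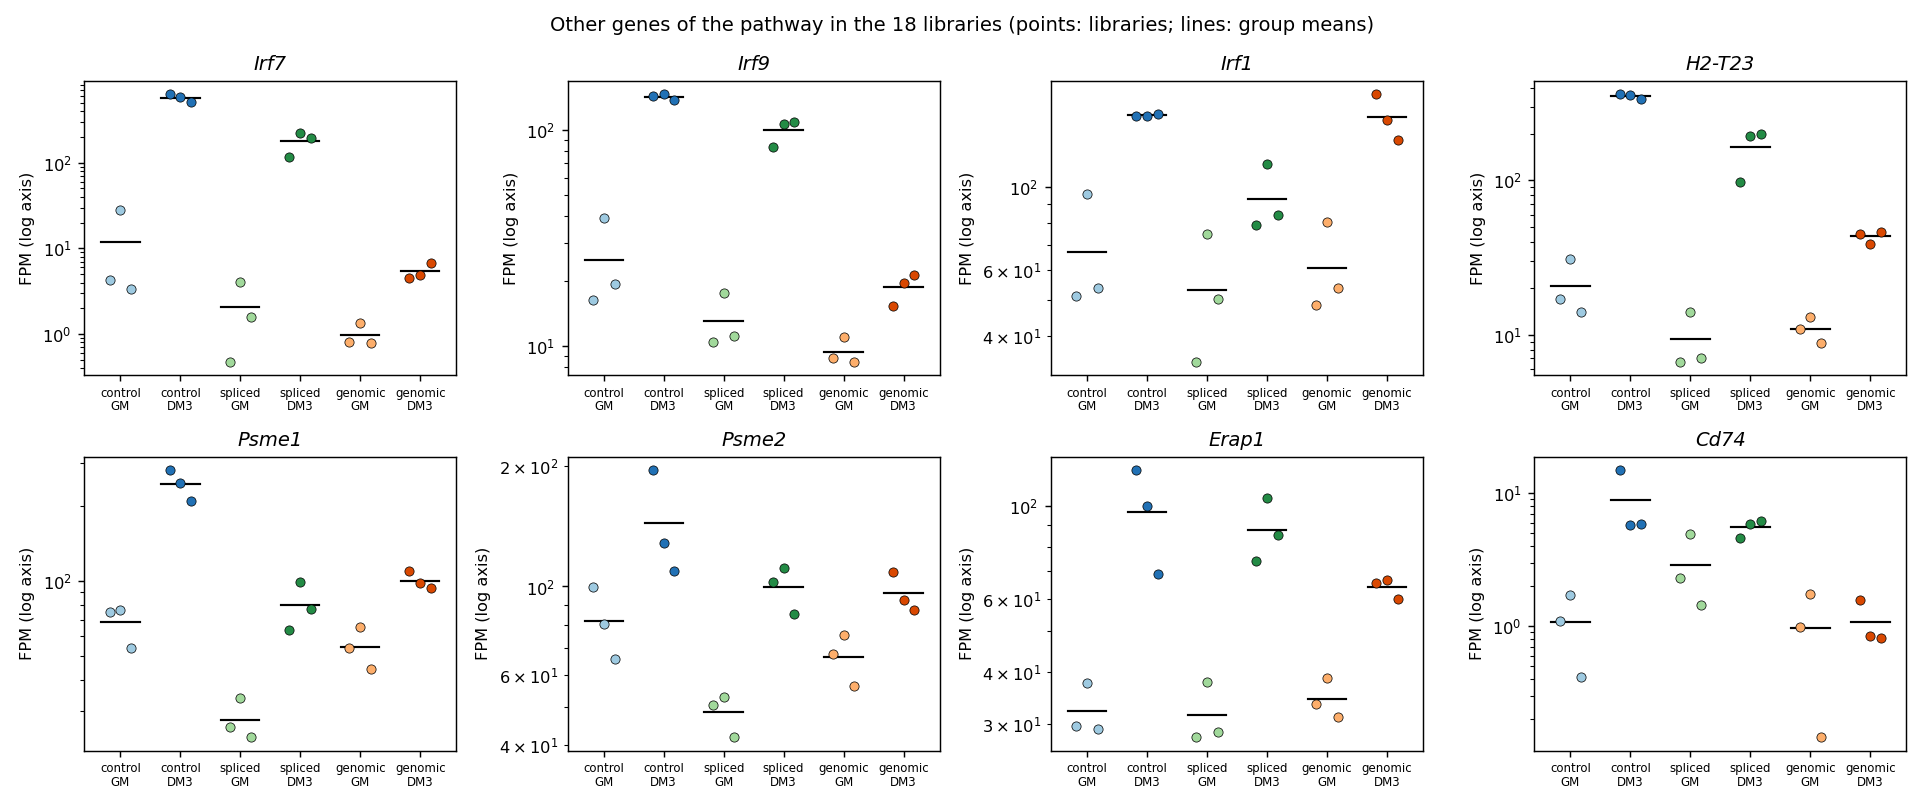
FPM (log axis) of 8 other genes of the pathway in the 18 libraries, with 3 points per group and a line at the group mean. Irf7, Irf9 and H2-T23 are low in MUNC genomic DM3, whereas Irf1 stands at 133 to 176 FPM there and at 155 to 156 FPM in control DM3.

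Of 14 genes of the class I enhanceosome and NF-kB, the factors that meet on the promoter elements printed above, 4 rose and 4 fell in control cells. Rfx5, a subunit of the RFX complex with which Nlrc5 acts, rose from 11.9 ± 4.99 to 30.7 ± 2.62 FPM (SD, n = 3), and Nfyc, a subunit of the Y box factor, fell from 40.8 to 18.3 FPM. In DM3, 2 of the 14 were higher and 1 was lower in MUNC genomic cells than in control. Atf1 was higher, at 72.9 against 51.5 FPM, and Rfxank was lower, at 12.2 against 19.0 FPM.

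The other class I heavy chains were read in the same way. Of 23 listed class I and class I-like genes 21 were in the table and 18 were tested, and all 18 rose in control cells (median 2.13). In DM3, 13 of the 18 were lower and none was higher in MUNC genomic cells than in control (median -1.41). MUNC spliced cells in DM3 had 11 of the 18 lower than control and none higher (median -0.47), against 21.0% and 22.3% of all tested genes. H2-T23, the nonclassical molecule Qa-1, went from a mean of 20.7 to 351 FPM in control cells. It was at 164 FPM in MUNC spliced DM3 and at 43.3 FPM in MUNC genomic DM3. H2-T24 had DM3 means of 24 FPM in control and 1.15 FPM in MUNC genomic cells (log2 change -3.55). These genes are near copies of one another, and the authors' counting could have split or dropped their shared reads.

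Of 10 genes of peptide loading and trimming, 3 rose and 2 fell in control cells, against 29.6% and 28.6% of all tested genes. Erap1, which trims peptides in the endoplasmic reticulum, rose from 32.1 ± 4.77 to 97.2 ± 26.8 FPM and Tapbpl, a tapasin relative, from 7.57 ± 0.935 to 17.7 ± 4.54 FPM (SD, n = 3). The chaperone Calr did not pass, with means of 1173 FPM before and 785 FPM after (-0.57, limma adjusted p = 0.052), and Bcap31 fell from 204 to 151 FPM. In DM3, 4 of the 10 were higher and 1 was lower in MUNC genomic cells. Tapbpl was higher, at 25.2 against 17.7 FPM, Sec61a1 was higher, at 323 against 224 FPM, and Erap1 was lower, at 63.9 against 97.2 FPM.

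Of the 14 constitutive subunits of the 20S proteasome, 13 fell and none rose in control cells (median -0.76). Psmb5 fell from 69.9 to 31.9 FPM, Psmb6 from 202 to 135 FPM and Psmb7 from 287 to 143 FPM, so the ratios above moved through both of their terms. In DM3, 5 of the 14 were lower in MUNC genomic cells, with Psma7 at 87.8 against 140 FPM. Of 9 genes of the PA28 activator and of proteasome assembly, 2 rose and 5 fell in control cells. Those that rose were Psme1 and Psme2, the interferon-inducible PA28 subunits, from 68.3 to 246 FPM and from 81.9 to 144 FPM, and Psmg1 fell from 36.5 to 14.0 FPM. In MUNC genomic DM3, Psme1 averaged 100.5 FPM and Psme2 96.2 FPM, both lower than in control, while the assembly factor Pomp was higher, at 65.1 against 45.7 FPM. Psme1 was also lower in MUNC spliced DM3, at 79.9 FPM (log2 change -1.62).

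Most MHC class II genes were below the filter, with 2 of 9 reaching it. These 2 rose in control cells, against 29.6% of all tested genes. Cd74, the invariant chain of class II, went from 1.07 to 8.81 FPM in control cells. It was at 5.56 FPM in MUNC spliced DM3 and at 1.08 FPM in MUNC genomic DM3. Ciita, the class II transactivator and a relative of Nlrc5, had 0 to 5 reads in any library.

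Genes with the most similar profile were sought among those that averaged at least 5 FPM, by Pearson r with the mean standardised value of the 10 members over the 18 libraries. The 5 highest were Tgtp2 (0.987), Ifi27l2a (0.986), Dtx3l (0.985), Phf11d (0.984) and Gm6548 (0.983). These correlations describe libraries that share 6 group means and carry no p. Tgtp2, an interferon-inducible GTPase, had DM3 means of 66.1 FPM in control, 52.1 FPM in MUNC spliced and 3.30 FPM in MUNC genomic cells. Ifi27l2a averaged 161, 244 and 6.03 FPM in the same groups. Among the members, r with their own mean ran from 0.892 for Psmb8 to 0.990 for B2m.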

How the data were processed

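Poly(A) RNA from C2C12 cells was sequenced in 18 libraries, per the labels. Per the submitters' processing notes the tools were STAR, HTSeq and DESeq2 and the build was mm10; their versions, the annotation and the strand setting are not given in the sources used here. Normalized signal (FPM) for 35275 genes was deposited as 1 table. In every library 100% of the values were whole multiples of a step to within 0.05 of a read (largest distance 0.0354), so each value is a whole number of reads scaled for its library, although a label calls it fpkm. The values sum to 946834 to 1048477 FPM per library, and the 10 most abundant genes took 4.53% to 8.23% of the reads. The authors also deposited 5 tables of DESeq2 results, per the file headers, with log2 fold changes and their standard errors, p-values and adjusted p-values, and means and test statistics as a score. Of these only the log2 fold changes, their errors and the adjusted p-values of members were read, and the deposited score columns were not used.

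Groups were taken from the sample titles; in 9 samples another label goes against the title, and it was set aside. The main test was limma 3.58.1 in R 4.3.3, with a mean-variance trend, after adding 1 FPM and taking log2. It covered the 13869 genes that reached 0.5 FPM in 3 or more libraries. The fit took all 18 libraries together, leaving 12 residual degrees of freedom, and 11 comparisons were made, each adjusted over all genes tested (Benjamini-Hochberg, call under 0.05). The fitting code was tested on simulated data. The alternatives were pseudocounts of 0.1 and 5, no filter, a filter of 2 FPM, equal sums, quantile normalization, edgeR 4.0.16 and DESeq2 1.42.0 on the recovered reads, a fit of only the groups compared, the replicate number as a block, and each library left out. Same-numbered libraries deviated together, at correlations of 0.171 to 0.726, in control DM3 against GM, in each MUNC line against control in both media and between the MUNC lines in GM. The main fit did not pair samples by this number, which entered only as the block among the alternatives. Same-numbered libraries also matched best between the MUNC lines in DM3 (0.0939 to 0.434) and in MUNC genomic DM3 against GM (0.0531 to 0.358). In MUNC spliced DM3 against GM this did not hold for replicate 3 (0.0163). Intervals are 95% intervals of the fit. Limits from 3 reads cover counting error only.

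The members and the gene lists were chosen with earlier results of these data known. The text names all 10 members. From the lists it names Psmb5, Psmb6, Psmb7, Psme1, Psme2, Erap1, Calr, Tapbpl, Irf1, Irf7, Irf9, Rfx5, Ciita and Cd74; a further gene under this rule is not reported here. Per list it also names the called gene with the largest rise and the largest fall, where the higher group averages 5 FPM or more, in control DM3 against GM and in MUNC genomic against control in DM3. Of 98 listed genes 96 were matched; H2-L and H2-T9 were not. Coordinates are from GENCODE M21, which holds 34490 of the table's identifiers, and promoter sequences from RefSeq (GRCm38.p6), searched with Python 3.11.15. Tap2 and Nlrc5 had no promoter entry.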

Additional observations from a re-analysis of the deposited data

Results flagged for a closer look

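The rise between GM and DM3 differed between MUNC genomic and control cells for 8 members, by the interaction term of the limma fit (log2 scale, adjusted over all genes). The differences were -2.40 for H2-K1, -1.88 for H2-D1, -2.39 for B2m, -2.28 for Tap1, -1.36 for Tapbp, -1.55 for Psmb8, -2.50 for Psmb9 and -2.69 for Nlrc5. Between MUNC spliced and control cells only Psmb8 passed in limma (1.14), and its direction was not stable. The value was -1.25 in edgeR and -1.39 in DESeq2, neither called, and 7 of the 10 alternatives with all libraries and 9 of 12 fits without 1 library lost the call.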

How the results depend on the processing

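In control DM3 against GM, in MUNC spliced DM3 against GM and in MUNC genomic against control in DM3, all 10 members were called under all 10 alternatives and without any 1 library. Members called in MUNC spliced against control in GM went from 2 to 1 with a pseudocount of 5, with no filter, with equal sums and with only the groups compared, and were 1 to 2 with a library left out. In MUNC genomic against control in GM they went from 5 to 3 with a pseudocount of 5 and with only the groups compared, to 2 with no filter, and to 2 to 5 with a library left out. In MUNC spliced against control in DM3 they went from 4 to 2 with no filter, and to 2 to 4 with a library left out. For the MUNC spliced interaction the count went from 1 to 0 with a pseudocount of 0.1, no filter, a filter of 2 FPM, quantile normalization, edgeR, DESeq2 and only the groups compared, to 2 with the replicate block, and to 0 to 1 with a library left out. Counts over all genes that moved by over 1.5 times were 3046 against 4933 (MUNC spliced DM3 against GM, only the groups compared), 1214 with only the groups compared and 3868 with the replicate block against 1993 (MUNC spliced interaction), and 777 in edgeR and 2265 with the replicate block against 1222 (MUNC genomic interaction). With a library left out, these were 1013 at the lowest for the MUNC spliced interaction and 756 at the lowest for the MUNC genomic one.

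With the replicate block, limma called Tapbp in MUNC spliced against MUNC genomic in DM3 (adjusted p = 0.0498) and in the MUNC spliced interaction (adjusted p = 0.0444). In the first, each library matched best the library with the same number. In the second, replicate 3 of MUNC spliced DM3 matched replicate 2 of MUNC spliced GM best. Beside these and the calls named earlier in the report, the block changed no call of a member. Over single members, 1035 of the values under alternatives other than leaving out a library kept direction and call, 30 lost the call, 22 gained it and 13 changed sign. Those that changed sign were Nlrc5 in MUNC genomic DM3 against GM (-0.07716, quantile), Psmb10 in MUNC spliced against control in GM (0.0161, equal sums) and 4 members in the MUNC spliced interaction: Tap1 (-0.196 with a pseudocount of 5, -0.03428 with equal sums), Psmb8 (-1.248 in edgeR, -1.389 in DESeq2), Psmb9 (0.1723 with a pseudocount of 0.1, 0.4338 in edgeR, 0.3979 in DESeq2) and Nlrc5 (0.4399 with a pseudocount of 0.1, 0.05705 with quantile, 0.7821 in edgeR, 0.7467 in DESeq2). With a library left out, 706 of the values kept direction and call, 43 lost the call, 3 gained it and 28 changed sign, none of them a called value. The results with a change of sign ranged from -0.256 to 0.0407 (H2-K1), -0.516 to 0.0357 (Nlrc5) and -0.476 to 0.0399 (Psmb10) in MUNC spliced against control in DM3; from -0.223 to 0.306 (Tap2), -0.069 to 0.366 (Tapbp) and -0.19 to 0.017 (Psmb10) in the same lines in GM; from -0.0763 to 0.0732 (Nlrc5) and -0.0683 to 0.0238 (Psmb9) in MUNC genomic DM3 against GM; and from -0.0221 to 0.384 (H2-D1), -0.221 to 0.33 (Nlrc5), -0.384 to 0.132 (Psmb10), -0.26 to 0.0762 (Psmb9) and -0.424 to 0.336 (Tap1) in the MUNC spliced interaction. The cause of these changes was not tested. Depth limits Psmb8, and Psmb9 in MUNC genomic cells, which rest on 0 to 11 reads per library there.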
